A study of Mus musculus with 6 samples.

Results

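Neutrophil granule proteins and their relatives were followed through 10 genes: the alarmins S100a8 and S100a9, the primary granule enzymes Mpo and Elane, the secondary granule proteins Ltf, Camp and Ngp, and Ly6g, Ly6c1 and Retnlg, which mark neutrophils or myeloid suppressor cells. They were taken as a list of named genes, and their probes were found by the transcript accession on the array. Of the 10 genes, 9 had a probe, with 11 probes among the 55681 on the array, and all 9 entered the comparison of 25777 genes and transcripts. No probe was matched to Ly6g.

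The cells came from mesenteric fat, the fat around the gut, and were its stromal vascular fraction, a mixture of immune, endothelial and progenitor cells that collagenase frees from the tissue. Red cells had been lysed. The propolis group held 3 samples from male mice of the strain C57BL/6JHamSlc-ob/ob injected intraperitoneally with Brazilian propolis, an extract of a bee resin, for 12 weeks, with 2 injections a week of 100 mg/kg each. The vehicle group held 3 samples from male mice of the same strain injected with dilute DMSO and ethanol over the same time. All mice carried the ob/ob mutation, which removes leptin and makes the animals obese, so no lean mice were compared. The labels do not give the age of the mice or the number of mice in a sample.

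Neutrophils make their granules in an order during their development in bone marrow. Promyelocytes fill primary granules with myeloperoxidase and neutrophil elastase, and myelocytes and metamyelocytes then fill secondary granules with lactoferrin and cathelicidin. The transcripts of both kinds of granule are largely lost by the time a neutrophil enters blood or tissue, whereas S100a8 and S100a9 stay abundant in the mature cell. Granulocytic myeloid suppressor cells are immature or activated cells of the same lineage, and in mice they are sorted as Ly6G+ cells with a low level of Ly6C.

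Levels are given as log2 of the fluorescence intensity minus the 75th percentile of the same array, and a difference is propolis minus vehicle on that log2 scale. Levels of different probes are not set against each other. Each array had 59305 spots, of which 61.1% to 66.7% stood well above background. Propolis 1, propolis 2, vehicle 1 and vehicle 2 lay on slide 1, and propolis 3 and vehicle 3 lay on slide 2. Pancreatic acinar genes were high on vehicle 2, where the 4 genes tested averaged 5.14 against -4.27 to -2.83 on the other arrays. Intestinal epithelial genes were high on vehicle 3, where the 6 genes tested averaged 4.87 against -4.31 to -0.46 elsewhere. Differences of the granule genes are therefore also given without these 2 arrays. Macrophage and blood endothelial genes, which define the fraction, were well above background on all 6 arrays for all 7 and all 8 of the genes tested.

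Did the granule genes differ after propolis? They did not move as a group. The 3 secondary granule genes were low on every propolis array and on vehicle 3 and high on vehicle 1 and vehicle 2. S100a8, S100a9 and Retnlg stood highest on propolis 1, and Elane and Ly6c1 differed little between the groups. None of the 9 genes was called by limma with Benjamini-Hochberg adjustment over all 25777 genes at 0.05, where 0.834% of all genes were called. Adjusted p-values ran from 0.355 for Ltf to 0.991 for Ly6c1. At an unadjusted limma p under 0.05, 1 of the 9 (Ltf) passed, against 11.7% of all genes. The groups overlapped for all 9 genes, whereas they did not overlap for 17.4% of all genes. Propolis means were higher for 5 genes and lower for 4, and the median difference of the 9 was 0.14, against -0.0041 over all genes. In such a mixture of cells, fewer cells of a type and less RNA per cell cannot be told apart.

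**Figure D1:**
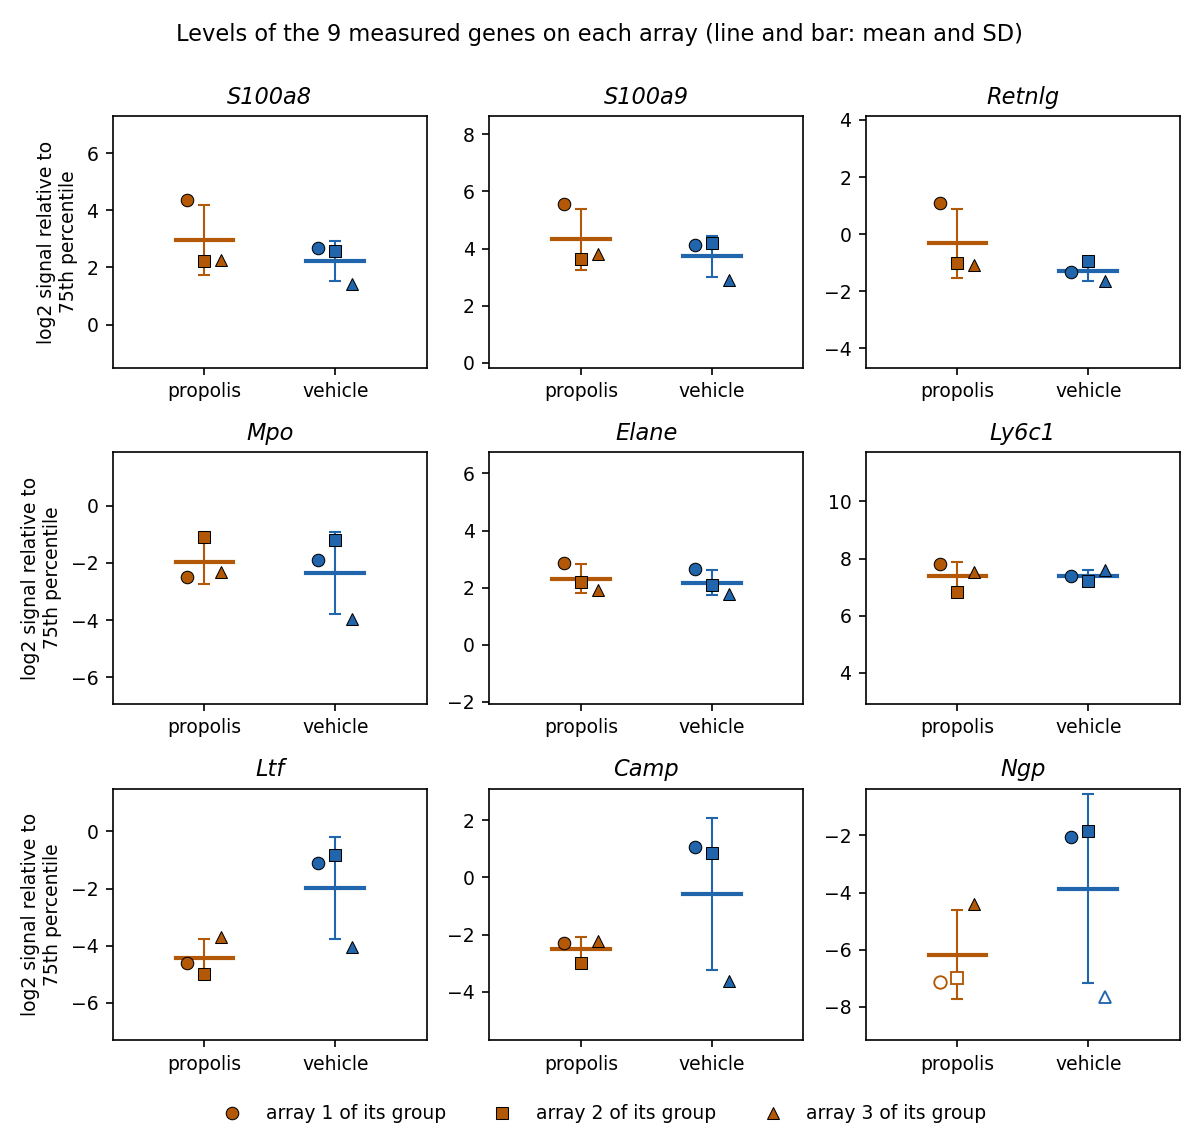
Log2 signal relative to each array's 75th percentile (vertical axis, the same span in every panel) for the 9 genes measured, propolis left of vehicle. Points are single arrays, with the shape giving the array number, open for a signal below the dimmest probe well above background, and the line and bar give the mean and SD of 3 arrays. Ltf, Camp and Ngp are high on vehicle 1 and vehicle 2 only, while S100a8, S100a9 and Retnlg are highest on propolis 1.

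The secondary granule genes had the widest spread. Ltf encodes lactoferrin, an iron-binding protein that starves bacteria. It had -4.61, -4.99 and -3.70 on the propolis arrays, against -1.11, -0.82 and -4.04 on the vehicle arrays. The high values belonged to vehicle 1 and vehicle 2, and vehicle 3 lay within the range of the propolis arrays. The means were -4.44 ± 0.66 in propolis and -1.99 ± 1.78 in vehicle samples (SD, n = 3 each). Ltf thus averaged 5.45-fold lower in propolis samples, a difference of -2.45 with a 95% interval from -4.58 to -0.31, at a limma adjusted p = 0.355. Leaving out vehicle 3 brought the limma adjusted p to 0.0574 and leaving out vehicle 1 brought it to 0.764. Ltf stood well above background on all 6 arrays, but its low values were dim. The dimmest probe well above background had -5.82, -5.33 and -5.75 on the propolis arrays and -5.48 on vehicle 3. Propolis 2 came closest to that level. Under another background correction, normexp, the Ltf difference was smaller, at -1.35.

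Camp encodes cathelicidin, the precursor of the antimicrobial peptide CRAMP. Its brighter probe had -2.31, -3.01 and -2.21 on the propolis arrays, against 1.05, 0.85 and -3.64 on the vehicle arrays. Vehicle 3 was the lowest of all 6 arrays, and vehicle 1 and vehicle 2 stood above every propolis array. The second Camp probe ordered the groups alike, with -3.38, -3.44 and -3.13 in propolis and -0.03, -0.19 and -4.31 in vehicle samples. The Camp means were -2.51 ± 0.44 in propolis and -0.58 ± 2.66 in vehicle samples (SD, n = 3 each). The difference of -1.93 had a 95% interval from -4.93 to 1.06 and a limma adjusted p = 0.644. Without vehicle 3 the difference was -3.47 at a limma adjusted p = 0.0497, and without vehicle 1 it was -1.12 at 0.930. Without vehicle 3, 0.159% of all genes were called.

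Ngp encodes neutrophilic granule protein, a cystatin-like protein of the same granules. It had -7.13, -6.98 and -4.39 on the propolis arrays, against -2.06, -1.86 and -7.67 on the vehicle arrays. It stood well above background on 1 of the 3 propolis arrays (propolis 3) and on 2 of the 3 vehicle arrays (vehicle 1 and vehicle 2). The other 3 values lie below the dimmest probe called well above background, which had -5.82 to -5.26 on the 6 arrays, and carry no order among themselves. The means were -6.17 ± 1.54 in propolis and -3.86 ± 3.30 in vehicle samples (SD, n = 3 each), with a difference of -2.31 at a limma adjusted p = 0.687. With the 3 undetected values raised to the level of that dimmest probe on their own array, the difference was -2.05. Left-out arrays moved the fitted difference, which uses the undetected signals as measured, to -4.21 without vehicle 3 and to -1.30 without vehicle 2. Over the vehicle arrays the range was 4.70 for Camp, 3.22 for Ltf and, with vehicle 3 raised as above, 3.63 for Ngp. The raised values are a stand-in and set no bound on the true difference.

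The split within the vehicle group was thus larger than the difference between the groups for Ltf and Camp. The mean of vehicle 1 and vehicle 2 lay above vehicle 3 by 3.08 for Ltf and 4.60 for Camp. For Ngp it lay above by 3.52 with vehicle 3 raised to the dimmest detected probe. Among all genes tested, 14% had both vehicle 1 and vehicle 2 above the other 4 arrays, as these 3 had. With vehicle 1 and vehicle 2 left out, a setting chosen after seeing the data, the difference was -0.39 for Ltf and 1.13 for Camp, while Ngp was detected on neither vehicle 3 nor 2 of the 3 propolis arrays and has no direction. With limma's array weights, which were highest for vehicle 1 (8.28) and lowest for propolis 3 (0.292) and vehicle 3 (0.324), all 3 genes were called lower, as 12.5% of all genes were called in either direction. Under those weights the limma adjusted p was 0.00917 for Ltf, 0.0249 for Camp and 0.0278 for Ngp, the last with its undetected signals as measured. Without the arrays high in acinar and intestinal genes, vehicle 2 and vehicle 3, the difference was -3.33 for Ltf, -3.57 for Camp and, with undetected values raised as above, -3.12 for Ngp. Averaged over the 3 genes, with Ngp at its measured signal, the level was -4.69, -5.00 and -3.44 on the propolis arrays, against -0.70, -0.61 and -5.12 on the vehicle arrays.

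Ltf, Camp and Ngp all lie on mouse chromosome 9, apart from each other: 18 annotated genes, 8 of them protein-coding, lie between Camp and Ngp, and 25, of which 20 are protein-coding, between Ngp and Ltf. Their promoters are shown because the 3 genes varied together and because the C/EBP family, C/EBP epsilon in particular, is known in mice for driving secondary granule genes. Each sequence is the 250 bases before the annotated start, from the RefSeq table for GRCm38.p6, written 5′ to 3′ on the gene's own strand. Capitals mark matches on either strand to the C/EBP letters TTNNGNAA or the PU.1 letters GAGGAA. The windows are chr9:111019042-111019291 on the plus strand for Ltf, chr9:109849457-109849706 on the minus strand for Camp and chr9:110419558-110419807 on the plus strand for Ngp.
Ltf: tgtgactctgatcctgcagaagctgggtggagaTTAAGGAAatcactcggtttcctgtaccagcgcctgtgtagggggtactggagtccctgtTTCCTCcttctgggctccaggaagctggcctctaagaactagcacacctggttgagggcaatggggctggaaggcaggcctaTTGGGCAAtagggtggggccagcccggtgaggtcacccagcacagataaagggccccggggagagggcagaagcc
Camp: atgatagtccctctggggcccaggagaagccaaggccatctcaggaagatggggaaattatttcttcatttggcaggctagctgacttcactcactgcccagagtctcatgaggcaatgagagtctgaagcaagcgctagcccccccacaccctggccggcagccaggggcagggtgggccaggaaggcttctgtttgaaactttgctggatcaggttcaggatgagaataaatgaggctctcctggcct
Ngp: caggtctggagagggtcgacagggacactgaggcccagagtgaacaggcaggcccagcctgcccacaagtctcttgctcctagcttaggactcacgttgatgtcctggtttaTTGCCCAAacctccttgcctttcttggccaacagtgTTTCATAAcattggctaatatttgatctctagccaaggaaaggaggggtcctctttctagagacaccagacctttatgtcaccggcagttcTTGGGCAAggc

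Ltf held 2 matches to the C/EBP letters and 1 to the PU.1 letters, and Ngp held 3 matches to the C/EBP letters. Camp had none of these letters in its window. The C/EBP letters occur in 36.8% and the PU.1 letters in 23.3% of the 32851 promoter windows of this length in the table. Genes that vary alike here therefore differ in whether these letters stand in the window.

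Among the genes of the alarmin group, S100a8 and S100a9 encode the subunits of calprotectin, a calcium- and zinc-binding protein that neutrophils and monocytes release and that signals through Toll-like receptor 4. S100a8 had 4.36, 2.22 and 2.27 on the propolis arrays, against 2.69, 2.57 and 1.42 on the vehicle arrays. Propolis 1 was the highest and vehicle 3 the lowest, and the other 2 propolis arrays lay between vehicle 3 and the remaining vehicle arrays. S100a8 averaged 2.95 ± 1.22 in propolis and 2.23 ± 0.70 in vehicle samples (SD, n = 3 each). The difference of 0.73 had a 95% interval from -0.87 to 2.32 and a limma adjusted p = 0.754. Without propolis 1 it was 0.02.

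S100a9 had 5.55, 3.62 and 3.82 on the propolis arrays, against 4.11, 4.18 and 2.91 on the vehicle arrays. The order of the arrays was close to that of S100a8, with propolis 1 highest by 1.37 over the next array and vehicle 3 lowest. S100a9 averaged 4.33 ± 1.06 in propolis and 3.73 ± 0.71 in vehicle samples (SD, n = 3 each), a difference of 0.60 at a limma adjusted p = 0.779. Without propolis 1 it was -0.01. Without vehicle 2 and vehicle 3 the difference was 0.26 for S100a8 and 0.22 for S100a9. Propolis 1 was the highest array for 22.1% of all genes tested and for 5 of these 9 genes, namely S100a8, S100a9, Elane, Ly6c1 and Retnlg.

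S100a8 and S100a9 are neighbours on chromosome 3 with 0 annotated genes between them. Over the 6 arrays their levels correlated at a Pearson r of 0.994, with propolis 1 highest and vehicle 3 lowest for both. Their promoters are shown as those of the closest pair of genes in this set. The windows are chr3:90668821-90669070 on the plus strand for S100a8 and chr3:90695722-90695971 on the minus strand for S100a9, from the same table. Capitals mark the same letters and also the TATA box letters TATAAA.
S100a8: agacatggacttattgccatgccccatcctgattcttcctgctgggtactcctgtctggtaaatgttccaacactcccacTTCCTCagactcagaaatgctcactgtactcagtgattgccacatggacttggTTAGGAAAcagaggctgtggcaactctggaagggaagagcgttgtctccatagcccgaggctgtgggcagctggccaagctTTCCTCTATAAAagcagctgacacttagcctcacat
S100a9: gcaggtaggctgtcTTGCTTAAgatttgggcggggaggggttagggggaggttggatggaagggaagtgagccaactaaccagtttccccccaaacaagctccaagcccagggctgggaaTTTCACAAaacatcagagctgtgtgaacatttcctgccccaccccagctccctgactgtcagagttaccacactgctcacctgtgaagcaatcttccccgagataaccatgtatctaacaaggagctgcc

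S100a8 held 1 match to the C/EBP letters, 2 to the PU.1 letters and a TATA box directly after a PU.1 match. S100a9 held 2 matches to the C/EBP letters and neither of the other motifs. The TATA box letters occur in 12.4% of all windows in the table. A pair of genes that varied almost alike thus shares only the C/EBP letters among these 3 motifs.

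Retnlg encodes resistin-like gamma, a secreted protein made in mouse bone marrow and mature neutrophils. It had 1.09, -0.99 and -1.06 on the propolis arrays, against -1.33, -0.93 and -1.63 on the vehicle arrays. Propolis 1 stood 2.02 above the next array, and the other 5 arrays lay close together. Retnlg averaged -0.32 ± 1.22 in propolis and -1.30 ± 0.35 in vehicle samples (SD, n = 3 each). The difference was 0.97, or 1.97-fold, with a 95% interval from -0.47 to 2.42 and a limma adjusted p = 0.627. It stayed above 0 in all 22 other settings computed, with values of 0.27 without propolis 1 and 1.01 without vehicle 2 and vehicle 3. Several of these settings, such as the probe filters and the blocks by slide or replicate number, cannot change this difference, as Retnlg has 1 probe.

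The primary granule genes showed a small difference or a wide spread. Mpo encodes myeloperoxidase, which makes hypochlorous acid. It had -2.50, -1.09 and -2.31 on the propolis arrays, against -1.90, -1.18 and -3.97 on the vehicle arrays. The highest arrays were propolis 2 and vehicle 2 and the lowest was vehicle 3, so the groups overlapped throughout. Mpo averaged -1.97 ± 0.77 in propolis and -2.35 ± 1.45 in vehicle samples (SD, n = 3 each), a difference of 0.38 at a limma adjusted p = 0.893. Without vehicle 3 the difference was -0.43, and without vehicle 2 and vehicle 3 it was -0.07.

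Elane, which encodes the serine protease neutrophil elastase, had 2.87, 2.19 and 1.91 on the propolis arrays, against 2.67, 2.08 and 1.80 on the vehicle arrays. The arrays of the groups alternated in order. Elane averaged 2.32 ± 0.50 in propolis and 2.18 ± 0.45 in vehicle samples (SD, n = 3 each). The difference of 0.14 had a 95% interval from -0.68 to 0.96, at a limma adjusted p = 0.915, and it was -0.13 without propolis 1 and -0.35 without vehicle 2 and vehicle 3. In the same granules, the protease gene Prtn3 had a difference of 0.99 (limma adjusted p = 0.0951) and the cathepsin G gene Ctsg, which mast cells also express, one of -1.35 (limma adjusted p = 0.164). The groups did not overlap for either gene, and the signs were opposite.

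Ly6c1 encodes a form of Ly6C, a surface protein of monocytes, suppressor cells and many capillary endothelial cells. It had 7.80, 6.82 and 7.53 on the propolis arrays, against 7.38, 7.20 and 7.61 on the vehicle arrays. The means were 7.39 ± 0.51 in propolis and 7.40 ± 0.21 in vehicle samples (SD, n = 3 each), and the difference was -0.01 with a 95% interval from -0.71 to 0.69. The limma adjusted p was 0.991, and a second probe gave a difference of -0.06. The sign of so small a value turned with settings, as with scaling by the array median, where it was 0.15. Ly6c2, a near-identical gene, had no probe matched to it, and whether its transcript binds the Ly6c1 probes was not tested.

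Ly6c1 stands beside endothelial genes, which were lower in propolis means for 8 of 8 genes tested, with a median difference of -0.80 and 0 called. By unadjusted limma p under 0.05, 2 of the 8 were lower, against 4.48% of all genes. The vascular endothelial growth factor receptor gene Flt1 had a difference of -1.02 (limma adjusted p = 0.218) and the cadherin gene Cdh5 one of -0.80 (limma adjusted p = 0.383). Endothelial genes averaged 2.14, 1.60 and 2.74 on the propolis arrays, against 2.97, 2.55 and 3.19 on the vehicle arrays. Their part in the level of Ly6c1 was not tested.

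Did the differences hold on each slide? With 2 arrays a group on slide 1 and 1 array a group on slide 2, the sign was the same on both slides for 4 of the 9 genes and opposite for 5. S100a8, S100a9, Retnlg and Elane had positive differences on both. S100a8 had 0.66 on slide 1 and 0.85 on slide 2, and Retnlg had 1.18 on slide 1 and 0.57 on slide 2. The 3 secondary granule genes turned direction. Ltf had -3.84 on slide 1 and 0.34 on slide 2, and Camp had -3.62 on slide 1 and 1.43 on slide 2. Ngp, with undetected values raised to the dimmest detected probe, had -3.61 on slide 1 and 1.09 on slide 2. Mpo also turned, from -0.25 on slide 1 to 1.66 on slide 2, and Ly6c1 was near 0 on both. A difference on slide 2 compares single arrays and has no test. With slide as a block over all 6 arrays, 0 of the 9 genes were called by limma, against 1.21% of all genes, and Ltf had the lowest adjusted p, 0.268.

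**Figure D2:**
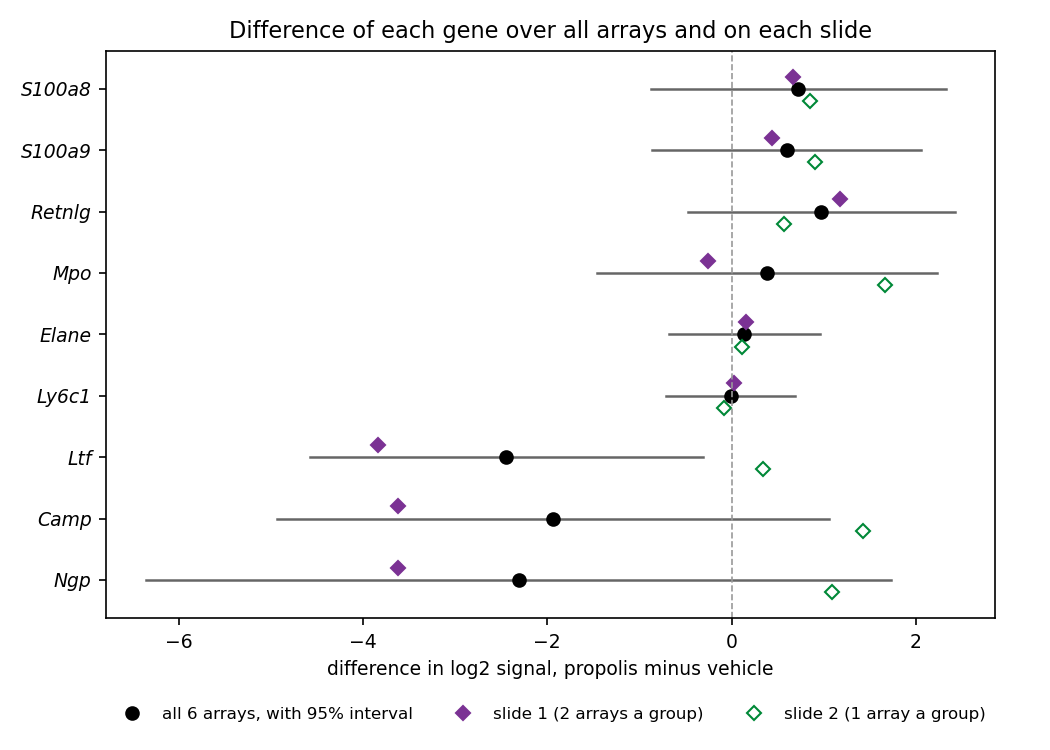
Difference in log2 signal, propolis minus vehicle (horizontal axis), for each of the 9 genes. Black points are differences over all 6 arrays with their 95% intervals, filled diamonds are slide 1 and open diamonds slide 2. For Ngp the diamonds are drawn with undetected values raised to the dimmest detected probe. The diamonds of Ltf, Camp and Ngp lie on opposite sides of 0, and the interval of Ltf is the only one that leaves out 0.

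How did the genes vary with each other? Across the 6 arrays, Ltf correlated with Camp at 0.940 and with Ngp at 0.936, and Camp with Ngp at 0.946 (Pearson r). S100a8 correlated with Retnlg at 0.939 and with Elane at 0.866. Between these sets the r was weaker, from -0.34 for Retnlg and Ltf to 0.35 for Elane and Camp, with -0.06 for S100a8 and Ltf. Ly6c1 and Mpo ran against each other at -0.75. With 6 arrays, and with 3 undetected values of Ngp, these values are descriptions. Vehicle 1 and vehicle 2 were the high arrays of the first set and propolis 1 that of the second.

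The genes most like each of these over the 6 arrays were mostly not granule genes. With 15771 genes to pick from and only 6 arrays, high r values arise readily, so these names are a description. Of 15771 other genes with a symbol, the aspartyl-tRNA synthetase gene Dars was the most like S100a8 (r = 0.998) and S100a9 came next (0.994), followed by Exosc1 (0.988). For S100a9 they were S100a8, 2310057M21Rik (0.991) and Dars (0.990). Most like Ltf were Nkapd1 (0.994), Ercc6 (0.988) and Otud4 (0.987), and most like Camp were Dock3 and Carmil3 (both 0.988) and Gm5478 (0.983). For Mpo they were Zbtb25 (0.996), Tmem266 (0.992) and Trp53inp1 (0.990), and for Elane Dph3 and Zfand5 (both 0.992) and Dtx2 (0.989). For Retnlg they were Plpp3 (0.992), Trnt1 and Huwe1 (both 0.991), and for Ly6c1 Ddhd2 (0.988), Gmeb2 (0.986) and Slc4a11 (0.982). The like genes often moved far less: Dars had -0.18 on propolis 1 and -0.95 on vehicle 3, and Nkapd1 ran from 0.24 on propolis 2 to 0.61 on vehicle 2.

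**Figure D3:**
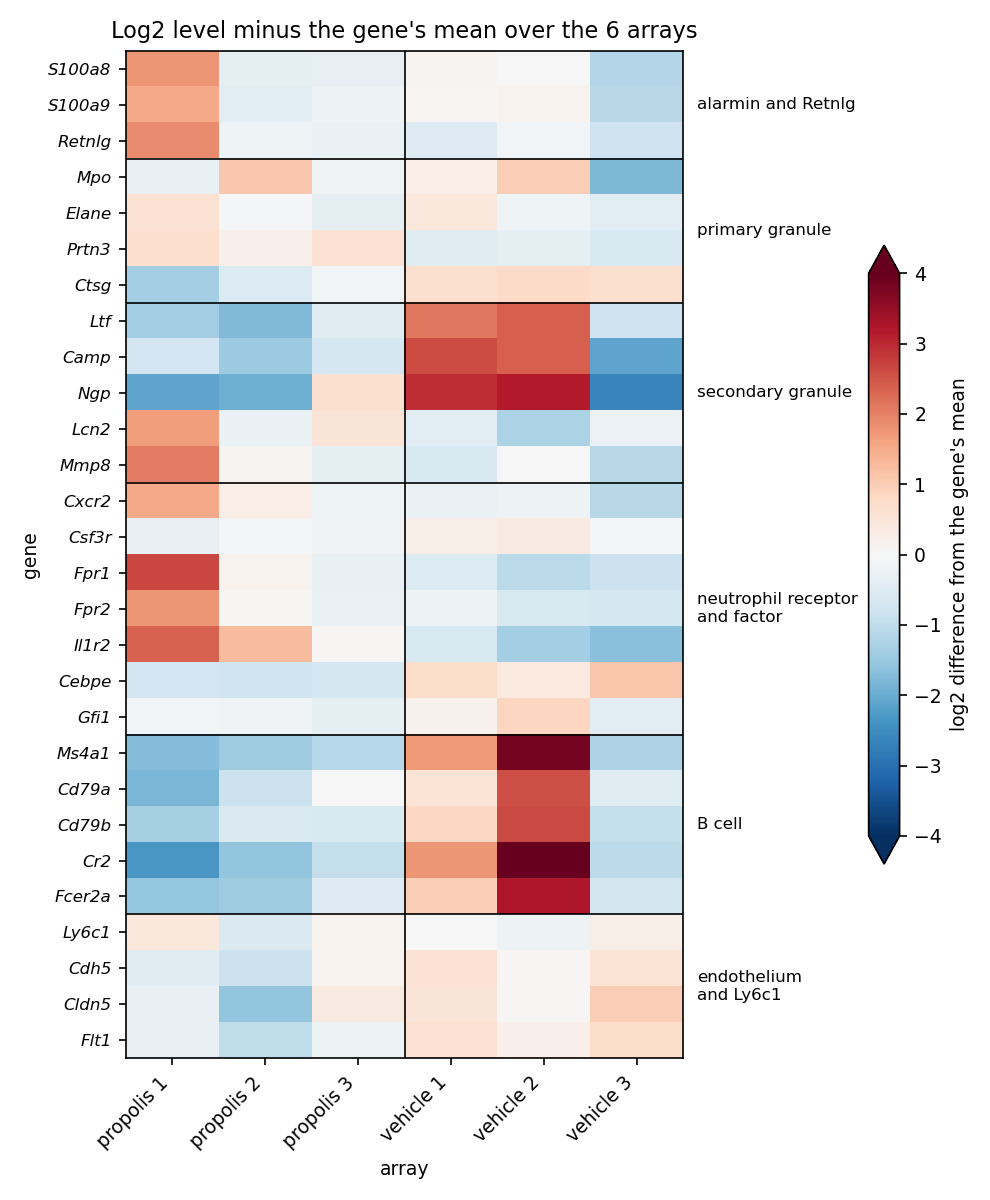
Log2 level of each gene (rows) on each array (columns, propolis left of vehicle) minus the gene's mean over the 6 arrays, with red for higher and blue for lower. Values past 4 take the end colour. Ltf, Camp and Ngp share their high arrays, vehicle 1 and vehicle 2, with the B cell genes, whereas Lcn2, Mmp8, Fpr1 and Il1r2 are highest on propolis 1 as S100a8 is.

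Other neutrophil genes did not form a single profile either. Of 13 further granule genes, 12 were tested and 0 were called by limma. By unadjusted p under 0.05, 2 were higher (Prtn3 and Hp) and 2 were lower (Ctsg and Cybb), against 7.24% higher and 4.48% lower of all genes. Their median difference was 0.67, or 0.25 without propolis 1, and 6 of the 12 were highest on propolis 1. The haptoglobin gene Hp had a difference of 1.11 (limma adjusted p = 0.269), and Cybb, the catalytic subunit of the NADPH oxidase, one of -0.89 (limma adjusted p = 0.286). Lcn2 and Mmp8, which encode secondary granule proteins and were picked here after their values were seen, did not follow Ltf. Lcn2 had 2.99, 1.05 and 1.84 on the propolis arrays, against 0.90, 0.05 and 1.08 on the vehicle arrays, and Mmp8 had -0.74, -2.67 and -3.15 in propolis against -3.38, -2.79 and -3.89 in vehicle samples. Both were highest on propolis 1, where Ltf, Camp and Ngp were low.

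Of 14 neutrophil receptor and transcription factor genes, all were tested and stood well above background on all 6 arrays, 1 fell by limma and 0 rose. Over all genes 0.834% were called, 186 higher and 29 lower. By unadjusted limma p under 0.05, 2 of the 14 were higher and 1 lower, against 7.24% higher and 4.48% lower of all genes. The groups did not overlap for 5 of the 14, against 17.4% of all genes. The gene called lower was Cebpe, which encodes C/EBP epsilon, the factor needed for secondary granules in mice. Cebpe had -2.29, -2.34 and -2.24 on the propolis arrays, against -0.79, -1.14 and -0.41 on the vehicle arrays, and the groups did not overlap. The means were -2.29 ± 0.05 in propolis and -0.78 ± 0.36 in vehicle samples (SD, n = 3 each), a difference of -1.51 (SE 0.22) at a limma adjusted p = 0.0491. The difference had one sign on both slides, -1.35 on slide 1 and -1.83 on slide 2, but with any array left out the limma adjusted p was 0.0871 to 0.199. Cebpe was highest on vehicle 3, the array on which Camp was lowest.

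The other receptor genes leaned the other way. Propolis means were higher for 10 of the 14 genes and 8 of them were highest on propolis 1. The list averaged 1.62, 0.74 and 0.70 on the propolis arrays, against 0.84, 0.64 and 0.33 on the vehicle arrays. The formyl peptide receptor gene Fpr1 had a difference of 1.67 (limma adjusted p = 0.471), the decoy receptor gene Il1r2 one of 2.45 (limma adjusted p = 0.169) and the antiprotease gene Slpi one of 1.46 (limma adjusted p = 0.394). The median difference of the 14 genes was 0.32, and it was 0.14 without propolis 1. A further list held 8 genes, for the growth factor G-CSF and for chemokines and cytokines tied to neutrophil supply and movement. Of the 8, 7 were tested and 0 were called by limma, also at an unadjusted p under 0.05. Of these 7, 5 were highest on propolis 1, and their median difference of 0.26 was -0.64 without that array. The chemokine gene Cxcl5 had 3.37, 0.29 and 0.74 on the propolis arrays, against 0.78, -0.89 and -0.94 on the vehicle arrays (limma adjusted p = 0.519).

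Genes tied to the suppressor function of these cells gave 0 calls by limma among 13 tested, with 5 higher and 2 lower at an unadjusted p under 0.05. The shares over all genes were 7.24% higher and 4.48% lower. The groups did not overlap for 8 of the 13, against 17.4% of all genes. The interleukin 4 receptor gene Il4ra had 2.91, 2.10 and 1.48 on the propolis arrays, against 0.40, 0.02 and 0.35 on the vehicle arrays, at a limma adjusted p = 0.0962. Wfdc17 had a difference of 1.17 (limma adjusted p = 0.114) and the cyclooxygenase gene Ptgs2 one of 2.38 (limma adjusted p = 0.146). Cd84, used as a marker of suppressor cells in mice, ran the other way with -0.71 (limma adjusted p = 0.292). The median difference was 0.77, with 0.93 on slide 1 and 0.67 on slide 2. Macrophages and stromal cells express most of these genes too, so the list is not particular to neutrophils.

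Of 5 genes of the receptor side of the alarmins, 4 were tested, all with higher propolis means and 0 called by limma. Myd88, the adaptor of Toll-like receptors, had a difference of 0.65 (limma adjusted p = 0.419) and Ly96, the partner of Toll-like receptor 4, one of 0.41 (limma adjusted p = 0.507). By unadjusted limma p under 0.05, 1 of the 4 (Myd88) was higher, against 7.24% of all genes. The receptor gene Tlr4 had a difference of 0.23 (limma adjusted p = 0.756) and the basigin gene Bsg one of 0.16 (limma adjusted p = 0.856).

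Relatives of these genes by family were measured as well. Of 12 further S100 genes, 11 were tested, with 0 called by limma and 0 highest on propolis 1. At an unadjusted p under 0.05, 2 were higher and 2 lower, against 7.24% higher and 4.48% lower of all genes. S100a1 had 3.20, 3.05 and 3.24 on the propolis arrays, against 2.12, 1.98 and 2.33 on the vehicle arrays, at a limma adjusted p = 0.0691 and 0.0488 with slide as a block. S100a11 had a difference of 0.74 (limma adjusted p = 0.187), S100a4 one of -0.78 (limma adjusted p = 0.293) and S100b one of -0.61 (limma adjusted p = 0.393). Of 12 further Ly6 family genes, 11 were tested, with 0 called by limma and also 0 at an unadjusted p under 0.05. Ly6d, a gene of B cell precursors and epithelia, had 1.66 on vehicle 1 and 3.76 on vehicle 2 and -1.03 to 0.05 on the other arrays. Of 3 further resistin family genes, 2 were tested, and Retnla, a product of alternatively activated macrophages and eosinophils, fell by 2.77 at a limma adjusted p = 0.0197. Over all genes 0.834% were called in either direction. With single arrays left out the limma adjusted p of Retnla ran from 0.0239 to 0.105. Retnlg, the neutrophil gene of the family, had the opposite sign.

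Which cells stood high on the same arrays? B cell genes, of which 6 of 7 were tested and 0 called by limma, were higher on vehicle 1 and vehicle 2 than on every other array for 6 of 6 genes, as Ltf, Camp and Ngp were. They averaged -2.78, -2.27 and -1.70 on the propolis arrays, against 0.19, 2.33 and -1.92 on the vehicle arrays. The median of the list was -3.93 on slide 1 and 0.17 on slide 2. T cell genes showed the same order of arrays for 6 of 6 genes, with averages of 1.10, 1.54 and 1.87 in propolis and 2.35, 2.73 and 1.39 in vehicle samples. The part of these cells in the levels of Ltf, Camp and Ngp was not tested.

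Genes of the other myeloid cells gave no call. Monocyte genes had a median difference of 0.35 with 0 of 9 called, and macrophage genes one of 0.25 with 0 of 7 called by limma, both with 0 at an unadjusted p under 0.05. Eosinophil genes had a median of -0.59 and mast cell genes one of -0.92, with 0 called by limma among 6 and 6 tested. At an unadjusted p under 0.05, 2 of the 6 eosinophil genes and 5 of the 6 mast cell genes were lower, against 4.48% of all genes. The eosinophil receptor genes Ccr3 and Il5ra had differences of -1.14 and -0.78 (limma adjusted p = 0.293 and adjusted p = 0.682). The mast cell genes Cpa3 and Mcpt4 had differences of -1.10 (limma adjusted p = 0.129) and -1.29 (limma adjusted p = 0.170), beside the -1.35 of Ctsg. Of 5 erythroid genes, 2 were tested, with a median difference of 0.94 and 0 called by limma. At an unadjusted p under 0.05, 1 was higher, against 7.24% of all genes.

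**Figure D4:**
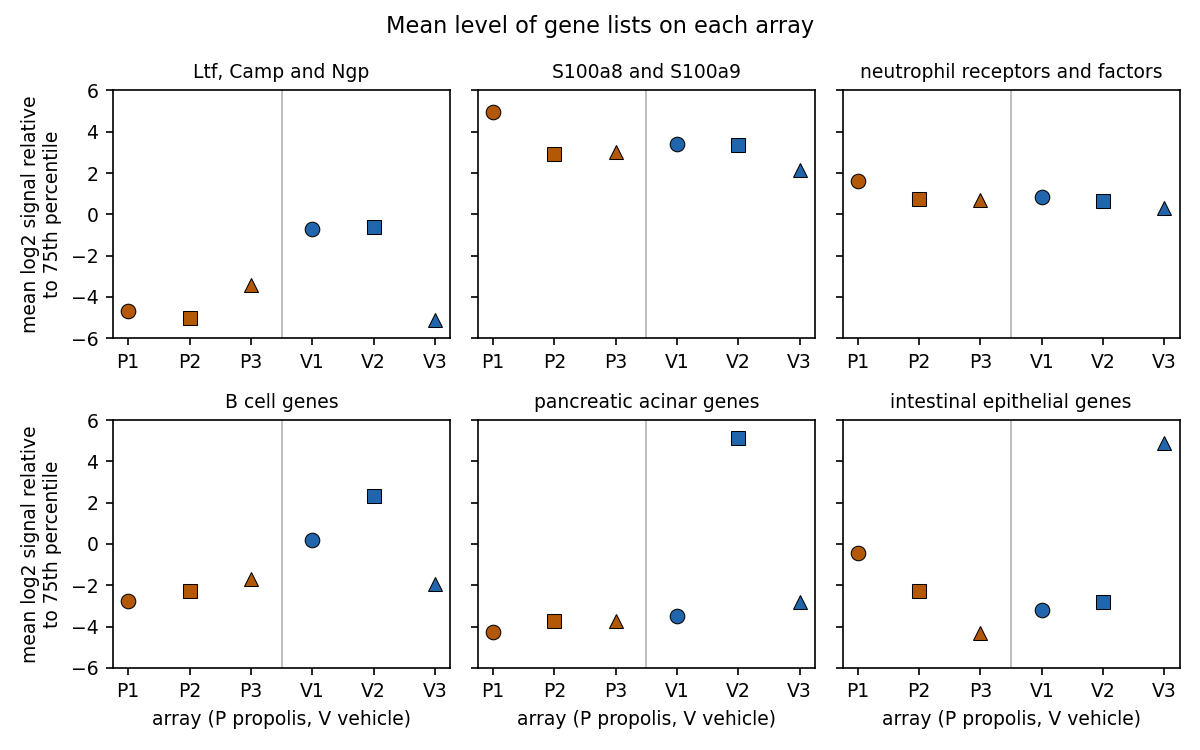
Mean log2 signal of 6 sets of genes (panels) on each array, with P for propolis and V for vehicle and the array number after it. The secondary granule genes and the B cell genes are high on V1 and V2, S100a8 and S100a9 on P1, pancreatic acinar genes on V2 and intestinal epithelial genes on V3.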

How the data were processed

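Per the labels' protocols, total RNA (0.1 µg) was labelled with Cy3, and per the submitters' processing notes the 1-colour Agilent arrays were read with Feature Extraction 10.7.3.1. The scanner tables deposited by the authors hold a processed signal, a background-corrected intensity. The table of log2 values deposited by the authors, scaled to the 75th percentile as its columns show, served as an alternative. Its column medians were -3.954 to -3.608 and it correlated at 0.9993 to 1.0 with the scanner values, which fixes its direction.

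Here the intensity was turned to log2, non-uniform spots were removed, replicate spots averaged and the 75th percentile of each array subtracted. A probe entered when well above background on at least 3 of 6 arrays, as 34786 probes did (4 with a missing value were dropped), and the brightest stood for its gene. Symbols came from a RefSeq table of GRCm38.p6 by accession. The array design was made on mm9, so gene positions are named only. No symbol was found for 28446 probes, and 15772 of the genes tested had one. The fit used limma 3.58.1 in R 4.3.3 without a block, with Benjamini-Hochberg adjustment, a threshold of 0.05 and a prior of 2.36 degrees of freedom, and was tested on simulated data. A permutation test of 3 arrays against 3 cannot give an exact p below 0.1. P-values measure the spread between these samples, which the labels call biological replicates. The number of arrays limits the precision.

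Genes and lists were chosen with earlier results of these data known. Named are all 10 genes, in every other list each gene called and up to 4 of lowest p, and the 3 most correlated genes for each gene well above background on all 6 arrays. Lcn2 and Mmp8 in the text, and Cxcr2, Csf3r, Fpr2, Gfi1, Cd79a and Cd79b in a plot, stand outside this rule. Of the genes of lowest p in a list the text gives only some, chosen with their values seen, and 1 is not reported here. Alternatives covered background, scaling, filter, flags, probe rule, variance model, weights, slide, replicate number and arrays left out.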

Additional observations from a re-analysis of the deposited data

How the results depend on the processing

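Main values were 215 genes called, 0 of the 9 measured granule genes called and a median difference of 0.140; unadjusted counts below are at a p under 0.05. With limma array weights 3231 genes and 3 of the 9 were called (Ltf at -3.64, Camp at -3.70, Ngp at -4.54), the median was -0.297, and S100a8 (-0.067), S100a9 (-0.133) and Elane (-0.297) turned sign. Those weights ran from 0.292 for propolis 3 to 8.28 for vehicle 1. Without a filter 106 genes were called. On slide 1 alone 0 genes were called by limma (5856 by unadjusted p), and Mpo (-0.255) and Ly6c1 (0.022) turned. On slide 2 alone, with no test, the median was 0.854, Mpo was at 1.66, and Ltf (0.338), Camp (1.429) and Ngp (3.281) turned. Without vehicle 1 and vehicle 2, chosen after seeing the data, 0 genes were called by limma (2093 by unadjusted p), the median was 1.306, and Camp (1.13) and Ngp (1.501, from undetected signals) turned. Without vehicle 2 and vehicle 3, 0 genes were called by limma (1362 by unadjusted p), the median was -0.067, and Mpo (-0.067), Elane (-0.347) and Ly6c1 (0.002) turned. Scaling by the array median moved the median of all genes to 0.154 and Ly6c1 to 0.147. Background correction by normexp, run on median signals because the scanner tables hold no mean signals, moved Ly6c1 to 0.004. It also made the differences of the secondary granule genes smaller. Ltf went from -2.446 to -1.354, Camp from -1.935 to -1.68 and Ngp from -2.308 to -0.877, so their size depends on the background correction.

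With 1 array left out in turn, 11 to 94 genes and 0 to 1 of the 9 were called (Camp, without vehicle 3), the median ran from -0.135 to 0.383, and S100a9 (-0.014 to 0.952), Elane (-0.135 to 0.383), Mpo (-0.427 to 0.969) and Ly6c1 (-0.220 to 0.271) changed sign. Ltf kept its sign in 21 of its 22 alternatives and Retnlg in all 22. Both counts include settings that cannot move the difference of a gene with 1 probe, such as the filters and the blocks. The fit with a replicate block called 73 genes and 0 of the 9. Samples with the same number correlated at 0.036, 0.291 and 0.135 in their deviations from the group means. Samples with different numbers correlated at -0.31 to 0.206. These values do not settle whether the samples were paired. The labels state no pairing, so the number was not taken to pair them, and the block changed the call of none of the 9 genes. The filter on all 6 arrays gives no value for Ngp. Leaving out pairs of vehicle arrays leaves 1 vehicle array, so the spread comes from propolis arrays and that array is assumed to vary alike. The cause of these shifts was not tested. Signal near background limits Ngp most, and the detection floor leaves its lowest values without an order.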
